A study of Mus musculus with 27 samples.

Results

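Pancreatic islets from 6-week-old female NOD mice were compared with islets from age-matched NOD mice that lack the Rag1 gene, with 3 arrays of each genotype. The comparison took in every gene that has a probe set with a single gene symbol. Where a gene had several such probe sets, the brightest on average was used, which gave 19938 genes. These 6 arrays belong to a series of 27, all of untreated female mice on the NOD/ShiLt background kept in a pathogen-free barrier facility. The series also holds NOD.Batf3-/- islets at 6 weeks (3 arrays) and islets of the 3 genotypes at 8 weeks (6 arrays each), which serve here as reference groups. In the text below, NOD stands for the unmodified strain, Rag1ko for NOD.Rag1-/- and Batf3ko for NOD.Batf3-/-. The submitters' design text counts 27 mice, which makes each array 1 mouse. Total RNA of whole islet preparations was hybridised to Affymetrix arrays, so every value is a mixture of endocrine cells, any immune cells in the islet and any exocrine tissue carried along.

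The NOD mouse develops autoimmune diabetes spontaneously: T cells and myeloid cells enter the islets, and the insulin-producing beta cells are destroyed. Rag1 encodes a subunit of the recombinase that assembles antigen receptor genes. Mice without it make no mature T or B cells and do not develop the disease, while their macrophages, dendritic cells and innate lymphocytes remain. Batf3 is a transcription factor needed for the dendritic cells that cross-present antigen to CD8 T cells. Interferon-gamma from activated T and NK cells induces the transcription factor IRF1, chemokines, guanylate-binding proteins and the antigen presentation machinery. The comparison thus sets islets of mice that can form mature T and B cells beside islets of mice that cannot. It also takes in anything else that differed between the groups, such as the hour of death, which the labels do not state.

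Values are log2 RMA intensities, and a difference is NOD minus Rag1ko on the log2 scale, so that 1 unit is a doubling. Each difference is given with its standard error from a limma fit to all 27 arrays. A gene was called when its Benjamini-Hochberg adjusted p over all 19938 genes was under 0.05. Values compare arrays for the same gene and do not rank different genes by abundance. The endocrine label was borne out by Ins2, the insulin gene, at 12.93, 13.04 and 12.98 in NOD and 12.78, 12.92 and 12.76 in Rag1ko islets. Glucagon, encoded by Gcg, stood at 13.35, 13.37 and 13.30 in NOD and 13.12, 13.31 and 13.10 in Rag1ko islets. Exocrine transcripts were also near the top of the scale, which ended at 13.85. Cpa1, which encodes a pancreatic digestive carboxypeptidase, was 13.51, 13.53 and 13.57 in NOD and 13.50, 13.39 and 13.37 in Rag1ko islets. The mean of 27 acinar markers was 11.99 ± 0.08 (SD, n = 3) in NOD and 11.89 ± 0.22 in Rag1ko islets at 6 weeks, against 8.48 ± 0.78 (n = 6) and 7.36 ± 0.94 at 8 weeks.

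The arrays were not equally alike. The median value of an array was 5.29 to 5.34 at 6 weeks but 4.92 to 5.05 at 8 weeks, so genotypes were compared within an age. Over the 9 arrays at 6 weeks the first principal component carried 32.0% of the variance and placed the NOD arrays (-14.9, -30.9 and -20.0) apart from the other genotypes (-1.6 to 15.8). Rag1ko mouse 1 lay apart on the second component, at -32.6, where the other 8 arrays lay between -8.0 and 16.8. Rag1ko mice 2 and 3 were the closest of 54 same-group pairs: over 4389 bright genes the median absolute deviation of their difference was 0.118, and the next lowest was 0.149. They nevertheless differed by over 1 unit in some genes, such as Fosb (7.73 and 9.08), and were kept as 2 samples. Rag1ko mice 2 and 3 both stood at 15.8 on the first component and 5.2 on the second. Some results that depend on Rag1ko mouse 1, 2 or 3 are given with and without that mouse. Calls of named genes lost with mice 2 and 3 averaged as 1 sample are listed in the closing section. The Rag1 probe set read 3.15, 3.30 and 3.34 in NOD and 3.34, 4.26 and 3.70 in Rag1ko islets, a difference of -0.51 ± 0.17 (adjusted p = 0.095). The labels do not say whether it lies inside the deleted stretch, so it does not check the genotype. The same holds for Batf3, at 4.62 to 5.05 in NOD and 4.80 to 5.08 in Batf3ko islets. Rag2, the partner subunit, differed by 0.14 ± 0.15 (adjusted p = 0.77). Of the 20 measured genes nearest to Rag1 on chromosome 2, Cd44 was higher in NOD (0.56 ± 0.14) and Pamr1 was lower (-0.72 ± 0.20). The other 18 were not called, and over all genes 3.87% were called.

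At 6 weeks 772 genes (3.87% of those tested) differed between NOD and Rag1ko islets. Of these, 287 (1.44%) were higher and 485 (2.43%) were lower in NOD. Large changes were mostly increases: 109 genes were higher by over 1 unit and 23 were lower by as much. The median difference of all genes was 0.01. In 4054 genes (20.3%) the 3 NOD arrays and the 3 Rag1ko arrays did not overlap, and 276 of the higher and 468 of the lower calls were among them. The balance of directions depended on the samples in the fit. With only the 9 arrays at 6 weeks, 243 genes were higher and 233 lower. With only the 6 NOD and Rag1ko arrays, 124 were higher and 73 lower. With all 27 arrays quantile normalized together, 324 were higher and 353 lower. Without NOD mouse 2 the fit called 377 genes, 187 of them higher, and the lower calls also fell by over 1.5 times without Rag1ko mouse 2 (296) or 3 (273). With those 2 mice averaged as 1 sample 449 genes were called.

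The lists with the most called members were those of immediate early genes, circadian clock genes, interferon-gamma targets and glucocorticoid targets. By contrast, lists for beta cells, other endocrine cells, acinar cells, ducts, B cells, T cells and macrophages held no called gene at 6 weeks. The plot of list medians sets the 6-week difference beside the difference at 8 weeks.

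**Figure D1:**
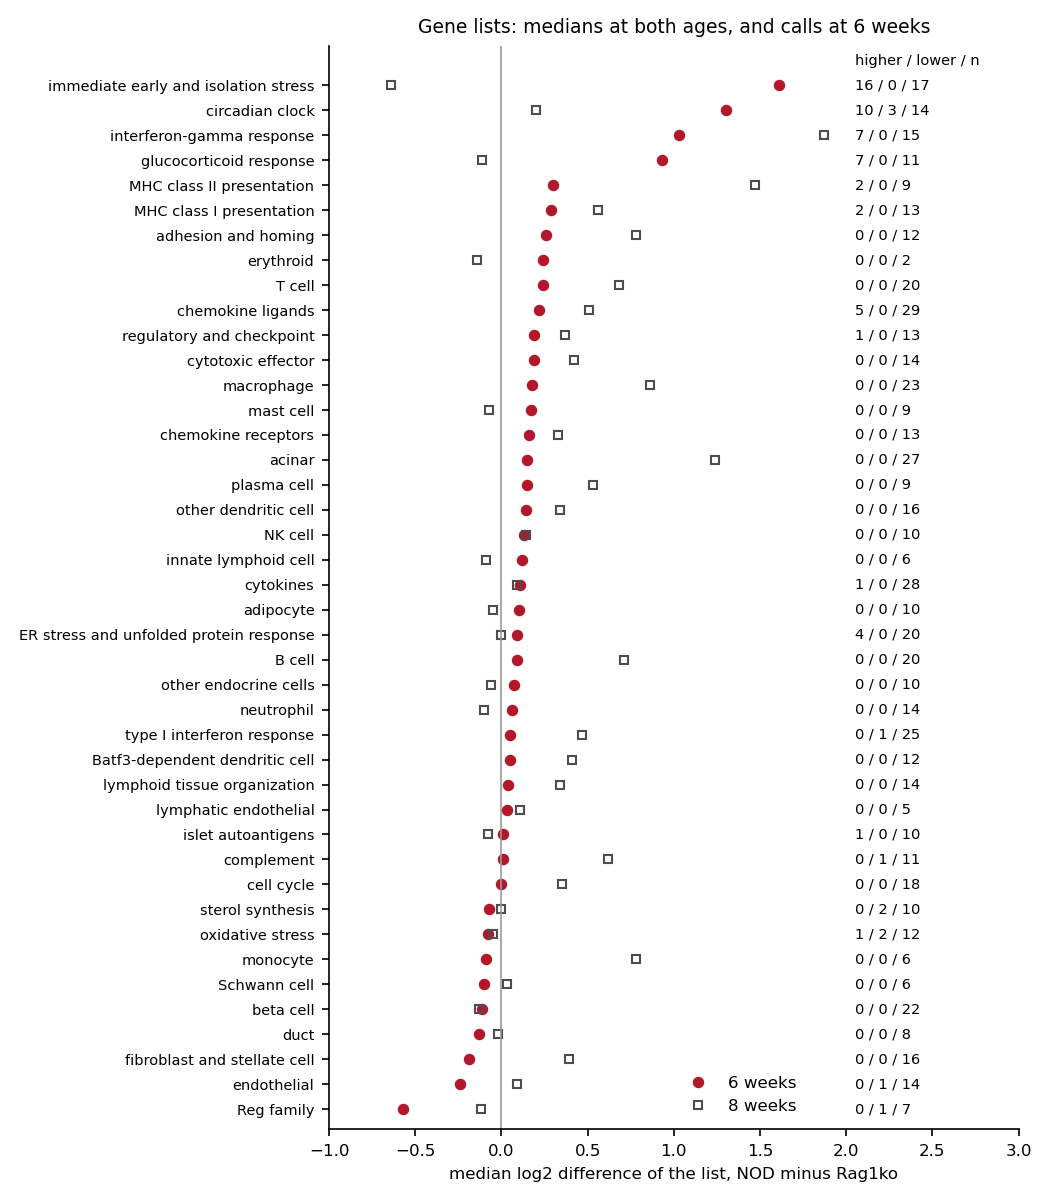
Median log2 difference (NOD minus Rag1ko, x axis) of each of 42 gene lists (rows) at 6 weeks (filled circles, 3 and 3 mice) and 8 weeks (open squares, 6 and 6 mice); the numbers at the right count the members called higher, called lower and measured at 6 weeks. The immediate early list has the highest median at 6 weeks (1.61) and a median below 0 at 8 weeks (-0.64), while the interferon-gamma list has a median of 1.03 at 6 weeks and 1.87 at 8 weeks.

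Interferon-gamma target genes were higher in NOD islets. Of 15 measured members of the list, 7 were called higher and none lower, against 1.44% of all genes called higher. The list's median difference was 1.03, and the median of all genes was 0.01. Cxcl9, which encodes a T cell-attracting ligand of CXCR3, was 8.70, 8.46 and 9.13 in NOD and 4.85, 4.86 and 3.88 in Rag1ko islets. Its difference of 4.23 ± 0.47 (adjusted p = 2.2e-06) was the largest increase in the comparison under the rule for named genes, and each NOD mouse stood over 3 units above each Rag1ko mouse. Cxcl10, a second CXCR3 ligand, was 8.17, 7.39 and 8.25 in NOD and 5.10, 4.88 and 5.44 in Rag1ko islets, a difference of 2.80 ± 0.40 (adjusted p = 7.7e-05). Iigp1, an interferon-inducible GTPase of cell-autonomous defence, was 6.37, 6.48 and 7.58 against 3.99, 3.65 and 3.66, a difference of 3.05 ± 0.43 (adjusted p = 8.2e-05).

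Irf1, the transcription factor that relays the interferon-gamma signal, was 7.69, 7.71 and 8.01 in NOD and 6.58, 6.60 and 6.71 in Rag1ko islets. The groups did not overlap, and the difference was 1.18 ± 0.16 (adjusted p = 5.6e-05). The guanylate-binding proteins, GTPases that attack intracellular microbes, were higher too. Gbp4 differed by 1.84 ± 0.46 (adjusted p = 0.020), Gbp5 by 1.47 ± 0.39 (adjusted p = 0.028) and Gbp7 by 1.03 ± 0.28 (adjusted p = 0.032). These 3 calls were weaker than the preceding ones: of 16 alternative settings 6, 5 and 6 ended them, among them leaving out NOD mouse 3, and with only the 6 arrays in the fit their adjusted p-values were 0.065, 0.080 and 0.10. Gbp3 (1.27 ± 0.41, adjusted p = 0.084) and Cd274, which encodes the checkpoint ligand PD-L1 (0.85 ± 0.27, adjusted p = 0.083), did not pass. Ido1 (0.01) and Socs1 (-0.06) were near 0. The Ifng probe set itself read 4.28, 4.78 and 4.61 in NOD and 4.28, 4.39 and 4.28 in Rag1ko islets (adjusted p = 0.75). The type I interferon list, antiviral genes that partly share this control, had no gene called higher of 25, and Cmpk2 was lower (-0.63 ± 0.14, adjusted p = 0.0091). This direction depended on the samples fitted: with only the 9 or only the 6 arrays 2 genes of the list were higher and 0 lower, among them Zbp1 (0.87, adjusted p = 0.0034 and 0.015). The Cmpk2 call was lost in 4 of 16 settings, including without NOD mouse 2 or Rag1ko mouse 3.

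Promoters of 3 of the called genes are shown because they hold the sequence elements through which interferon signals are known to act. Sequences are RefSeq windows of 300 bases on GRCm38.p6, from 250 bases before the transcript start to 50 after it. Capitals mark the core of the interferon-stimulated response element, which is GAAA repeated after 2 bases of any kind, and the gamma-activated sequence, TTCNNNGAA, each searched on both strands. The Cxcl10 window is chr5:92348840-92349139 (minus strand), the Gbp5 window chr3:142496684-142496983 (plus strand) and the Gbp7 window chr3:142530086-142530385 (plus strand).
Cxcl10: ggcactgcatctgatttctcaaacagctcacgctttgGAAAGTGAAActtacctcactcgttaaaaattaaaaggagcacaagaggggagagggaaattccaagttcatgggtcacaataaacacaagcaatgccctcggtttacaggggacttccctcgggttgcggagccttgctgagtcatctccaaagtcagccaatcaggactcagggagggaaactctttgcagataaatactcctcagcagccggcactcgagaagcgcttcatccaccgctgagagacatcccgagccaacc
Gbp5: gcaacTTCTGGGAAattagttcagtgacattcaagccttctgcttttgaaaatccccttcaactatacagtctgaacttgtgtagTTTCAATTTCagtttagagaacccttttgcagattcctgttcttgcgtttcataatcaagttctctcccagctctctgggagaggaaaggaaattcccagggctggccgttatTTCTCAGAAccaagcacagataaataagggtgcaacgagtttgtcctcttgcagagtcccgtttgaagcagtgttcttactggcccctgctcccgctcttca
Gbp7: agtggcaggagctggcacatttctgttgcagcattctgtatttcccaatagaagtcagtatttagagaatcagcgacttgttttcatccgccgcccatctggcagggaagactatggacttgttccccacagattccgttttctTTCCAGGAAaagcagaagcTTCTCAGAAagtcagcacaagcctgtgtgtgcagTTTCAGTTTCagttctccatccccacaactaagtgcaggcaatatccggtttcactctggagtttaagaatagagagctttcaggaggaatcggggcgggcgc
Among the 5 called genes of the list with a promoter in the table, 3 (Cxcl10, Gbp5 and Gbp7) held the response element core, and 3 (Gbp5, Gbp7 and Irf1) held the gamma-activated sequence. Among the 5 such genes that were not called, 3 held the first motif (Gbp3, Irgm1 and Socs1) and 0 held the second. Over all 27025 genes with a promoter, 3.99% held the first and 9.55% the second. A match is a run of letters, not a measured binding site.

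Some chemokine and cytokine genes outside the interferon-gamma list also differed. Of 29 measured chemokine ligand genes, 5 were called higher, where 1.44% of all genes were. They were Cxcl2, Ccl3 and Ccl4, and also Cxcl9 and Cxcl10, which belong to both lists and were counted above. Cxcl2, a neutrophil attractant, was 5.74, 5.42 and 6.65 in NOD and 3.71, 3.63 and 3.29 in Rag1ko islets, a difference of 2.40 ± 0.36 (adjusted p = 0.00014). Ccl3, an inflammatory chemokine of macrophages, was 7.16, 7.06 and 7.03 against 5.76, 5.42 and 5.43, a difference of 1.55 ± 0.34 (adjusted p = 0.0076). Ccl4, its close relative, differed by 0.94 ± 0.21 (adjusted p = 0.0088), a call lost without Rag1ko mouse 1 and in the 6-array fit. Ccl5, the T cell and NK cell product RANTES, was 6.74, 7.28 and 7.10 in NOD and 5.58, 5.17 and 5.33 in Rag1ko islets. These arrays did not overlap, yet the difference of 1.68 ± 0.56 was not called (adjusted p = 0.099) in the fit to all 27 arrays. With only the 9 arrays at 6 weeks its adjusted p was 0.00083. Tnf was the single cytokine gene of 28 called (1.11 ± 0.26, adjusted p = 0.012), and NOD mouse 1 (4.42) equalled Rag1ko mouse 1 (4.42). That call was lost in 6 of 15 alternative settings, including without NOD mouse 2 or 3 or Rag1ko mouse 2. The chemokine receptor list had no call among 13 genes.

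Antigen presentation genes were higher in part: 2 of 9 class II and 2 of 13 class I genes were called higher, where 1.44% of all genes were. H2-Ab1, the beta chain of the class II molecule I-A, was 7.93, 8.32 and 8.38 in NOD and 6.87, 6.62 and 6.78 in Rag1ko islets (1.45 ± 0.36, adjusted p = 0.017). Cd74, the invariant chain that guides class II molecules to the endosome, was 8.74, 9.26 and 9.07 against 7.81, 7.50 and 7.45 (1.44 ± 0.33, adjusted p = 0.0092). The NOD and Rag1ko arrays were separate in both genes. The H2-Ab1 call was lost in 5 of 16 settings, including without NOD mouse 2 or 3 or Rag1ko mouse 2 or 3, and without NOD mouse 2 none of the 9 class II genes was called (Cd74 1.32, adjusted p = 0.065). The other 7 measured class II genes were not called, and H2-Aa (0.90 ± 0.30, adjusted p = 0.10) and H2-Eb1 (0.77 ± 0.32, adjusted p = 0.22) came next. In the class I pathway, 2 of 13 genes were called: Psmb9, an interferon-inducible subunit of the immunoproteasome (1.31 ± 0.29, adjusted p = 0.0087), and B2m, the light chain of class I (0.82 ± 0.23, adjusted p = 0.044). The Psmb9 call was lost without NOD mouse 3, and the B2m call in 10 of 16 settings, including without NOD mouse 2 or 3 or Rag1ko mouse 2 or 3. Without NOD mouse 3 none of the 13 class I genes was called.

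Markers of infiltrating cells showed smaller differences at this age. Ctla4, the inhibitory receptor of activated and regulatory T cells, was the only call in the regulatory and checkpoint list of 13 genes. It was 4.75, 4.27 and 4.68 in NOD and 3.20, 2.99 and 3.55 in Rag1ko islets (1.31 ± 0.28, adjusted p = 0.0053). None of 20 T cell genes was called, with a median difference of 0.24, or 0.16 with all 27 arrays quantile normalized together. For comparison, the median of 1194 olfactory and vomeronasal receptor genes was 0.13. In 6 of the 20 T cell genes all NOD mice were above all Rag1ko mice, where 1899 of all 19938 genes were. Rag1ko mice form no mature T cells, so their values are readings of the T cell probe sets without those cells. Innate lymphocytes and myeloid cells remain in these mice, so the values need not be a level of no expression. The CD3 chain gene Cd3e was 5.34, 5.49 and 5.59 in NOD against 4.84, 4.82 and 4.77 in Rag1ko islets (0.67 ± 0.35, adjusted p = 0.39). The mean over the T cell list was 4.39, 4.47 and 4.49 in NOD, 4.25, 4.21 and 4.19 in Rag1ko and 4.20, 4.21 and 4.18 in Batf3ko islets. The macrophage list (0 of 23 called, median 0.18) gave means of 5.52 to 5.65 in NOD and 5.18 to 5.39 in Rag1ko islets. The B cell list (0 of 20), the cytotoxic effector list (0 of 14) and the NK cell list (0 of 10) had no call either.

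These counts rest on the spread of all 27 arrays. With only the 9 arrays at 6 weeks, 6 of 23 macrophage, 2 of 20 T cell and 2 of 14 cytotoxic effector genes were called higher. Of all 19938 genes, 243 were higher in that fit. Among the called were Aif1 (1.10, adjusted p = 0.00084), Cd3e (0.67, adjusted p = 0.029) and Nkg7 (0.92, adjusted p = 0.014). With only the 6 NOD and Rag1ko arrays the counts were 6, 1 and 1, where 124 of all genes were higher. Aif1 (adjusted p = 0.0091) and Cd3e (0.031) stayed called in that fit, and Nkg7 (0.075) did not. In whole islet RNA, more cells of a type and more RNA per cell cannot be told apart. How far the leukocyte markers account for the interferon-gamma and chemokine differences was not tested.

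**Figure D2:**
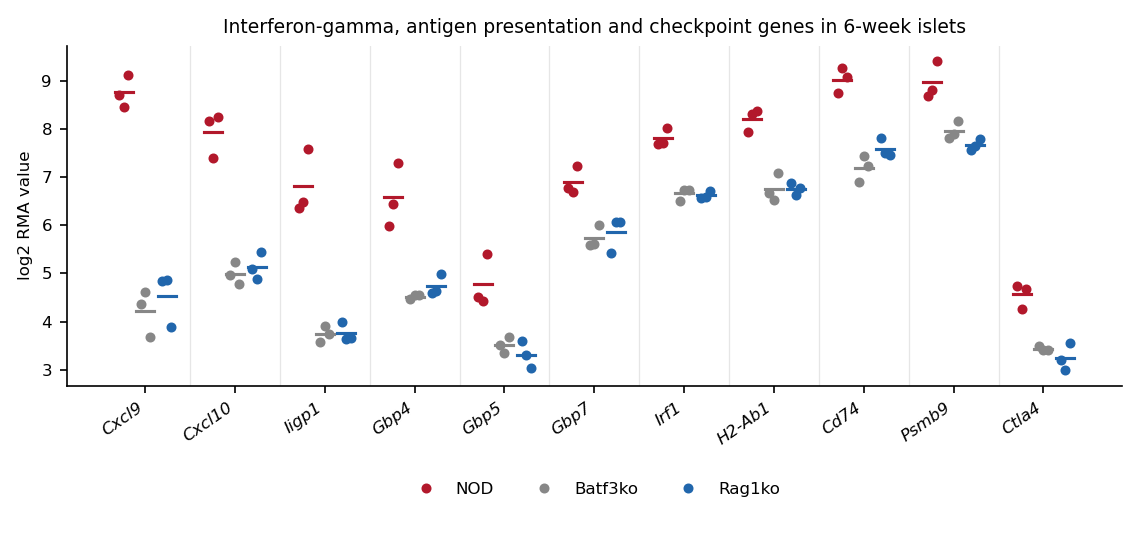
Log2 RMA values (y axis) of 11 interferon-gamma, antigen presentation and checkpoint genes (x axis) in the 3 NOD (red), 3 Batf3ko (grey) and 3 Rag1ko (blue) mice at 6 weeks; points are mice and bars are group means. The NOD mice lie above every Rag1ko mouse in all 11 genes, and for Cxcl9 they lie between 8.46 and 9.13 against 3.88 to 4.86.

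Batf3ko islets lay nearer to Rag1ko than to NOD islets in these genes: the mean of the interferon-gamma list was 4.82 to 4.85 in Batf3ko, 4.90 to 5.06 in Rag1ko and 6.04 to 6.59 in NOD islets. Cxcl9 was 4.37, 4.62 and 3.68 in Batf3ko islets, and the Batf3ko minus Rag1ko difference was -0.30 (adjusted p = 1.0). None of the 15 interferon-gamma list genes was called in Batf3ko against Rag1ko islets, where 70 genes (0.351%) were called in all. In Batf3ko against NOD islets, 7 of the 15 were lower, where 194 genes (0.973%) were called in all. These comparisons share the NOD or the Rag1ko arrays with the main comparison, so they are not independent of it.

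At 8 weeks the interferon-gamma and class II differences were present as well. In that comparison 565 genes (2.83%) were higher and 247 (1.24%) lower in NOD. Cxcl9 differed by 5.95 ± 0.34 at 8 weeks and by 4.23 at 6 weeks, and the change between ages was not called (adjusted p = 0.10). Of the interferon-gamma list, 12 of 15 were called higher at 8 weeks, and of the class II list 9 of 9, with a median of 1.47 against 0.30 at 6 weeks. The change between ages itself was called in 1 of the 15 and in 0 of the 9. Leukocyte lists without a call at 6 weeks had calls at 8 weeks. Higher at 8 weeks were 11 of 20 T cell, 17 of 23 macrophage, 6 of 14 cytotoxic effector and 4 of 20 B cell genes. The T cell median was 0.68 at 8 weeks and 0.24 at 6 weeks, and the macrophage median was 0.86 and 0.18. NOD mice spread widely at 8 weeks (T cell list mean 4.89 ± 0.62, SD, n = 6), which limits the test of change. Few members of the leukocyte lists had a called growth of the difference with age. It was called in 2 of 23 macrophage genes and 1 of 6 monocyte genes. In the T cell (20 genes), B cell (20 genes) and cytotoxic effector (14 genes) lists it was called in 0. The genes that follow are among those in which it was called. Lyz2, the lysozyme of myeloid cells, differed by 0.32 ± 0.56 at 6 weeks and 2.88 ± 0.40 at 8 weeks (change 2.57, adjusted p = 0.033). Cd52, a surface glycoprotein of lymphocytes, differed by 0.83 and 3.12 (change 2.29, adjusted p = 0.033). Ccl19, a chemokine of lymphoid tissue, differed by 0.21 and 2.83 (change 2.63, adjusted p = 0.039). Over all genes, the change between ages was called in 726 (3.64%), and 454 of the 772 genes called at 6 weeks (58.8%) were among them. The test of change uses the same 6-week arrays that chose the 772 genes, so the share of 58.8% is not independent of that choice. The 6-week and 8-week differences themselves share the fit but no arrays.

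Immediate early genes were the group with the highest median. These genes are transcribed within minutes of a stimulus without new protein synthesis, and they are also known to respond to tissue dissociation. Of 17 measured members 16 were called higher in NOD and none lower, against 1.44% of all genes, with a median of 1.61. In all 17 the NOD arrays lay above the Rag1ko arrays without overlap, where 1899 of all 19938 genes did. The list had been drawn up with earlier results of these arrays in view, so its direction is not independent evidence.

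Atf3, a stress-induced repressor of the ATF family, was 11.31, 11.06 and 11.27 in NOD and 8.45, 7.39 and 8.03 in Rag1ko islets (3.25 ± 0.48, adjusted p = 0.00012). Fosb, a subunit of the AP-1 factor, was 11.61, 11.44 and 11.58 against 8.55, 7.73 and 9.08 (3.09 ± 0.40, adjusted p = 1.9e-05). Klf6, a zinc finger factor, was 9.97, 9.83 and 10.01 against 7.80, 6.82 and 7.63 (2.52 ± 0.24, adjusted p = 3.1e-07). The NOD mice lay within 0.3 units of each other in these genes, and the Rag1ko mice were spread over about 1 unit. The nuclear receptor gene Nr4a1 differed by 2.28 ± 0.41, and Dusp1, a phosphatase that switches off MAP kinases, by 2.08 ± 0.28. The AP-1 genes Jun (1.64), Junb (1.61), Fos (1.56) and Jund (0.78) and the zinc finger genes Egr1 (1.60) and Egr2 (1.30) were called as well. Egr3 was the member that did not pass (0.34 ± 0.13, adjusted p = 0.18). With only the 9 arrays 15 of the 17 were called, and with only the 6 arrays 13.

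Several genes outside the list were among the 12 greatest increases. Gem, a small GTPase, differed by 2.60 ± 0.30. Rgs2, a regulator of G protein signalling, differed by 2.39 ± 0.45 and was high in all NOD mice (9.86, 9.42 and 9.60) and in Batf3ko mouse 1 (9.32), but not in the Rag1ko mice (7.18 to 7.31). Npas4, an activity-dependent transcription factor of neurons and beta cells, differed by 2.35 ± 0.47. Fam71a, at 7.61, 8.23 and 7.64 against 4.37, 4.36 and 4.48, differed by 3.42 ± 0.27 (adjusted p = 2.0e-08). RefSeq places it next to Atf3 on chromosome 1. Polg2, which encodes the accessory subunit of the mitochondrial DNA polymerase, differed by 2.85 ± 0.29 and lies next to Ddx5 on chromosome 11. Whether transcripts of a neighbour reach these probe sets was not tested.

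Stress pathways with their own lists followed in part. Of 20 genes of the endoplasmic reticulum stress response, 4 were higher, where 1.44% of all genes were: Atf3, Chac1 (1.76 ± 0.27), Ddit3, which encodes the stress factor CHOP (1.59 ± 0.14, adjusted p = 3.9e-08), and Herpud1 (1.29 ± 0.21). Ddit3 was 9.14, 9.32 and 9.54 in NOD and 7.62, 7.76 and 7.83 in Rag1ko islets. The median of that list was 0.09, and the Chac1 call was lost in the 6-array fit. Of 12 oxidative stress genes, Txnip, which binds thioredoxin, was higher (10.69, 10.14 and 10.67 against 9.65, 9.27 and 9.58, adjusted p = 0.0011, not called in the 9-array and 6-array fits), and Prdx1 (-0.69 ± 0.10) and Gclm (-0.61 ± 0.10), a peroxidase and a subunit of the enzyme for glutathione synthesis, were lower. Heat shock genes were examined after their values had been seen. Hspa1a, the inducible HSP70, was 9.69, 9.91 and 9.57 in NOD and 7.42, 7.54 and 8.04 in Rag1ko islets (2.06 ± 0.17). Its co-chaperone Dnajb1 differed by 2.18 ± 0.24 and Hsph1 by 1.59 ± 0.17. Of 73 heat shock and J protein genes 12 (16.4%) were higher and 1 (1.37%) lower, where 1.44% and 2.43% of all genes were, and their median difference was 0.02.

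Glucocorticoid target genes were higher in 7 of 11 cases, against 1.44% of all genes, with a median of 0.93. Fkbp5, a co-chaperone that dampens the glucocorticoid receptor, was 8.02, 7.41 and 8.05 in NOD and 6.43, 6.43 and 6.69 in Rag1ko islets (1.31 ± 0.21, adjusted p = 0.00032). Zbtb16 differed by 1.70 ± 0.28, Errfi1 by 1.52 ± 0.28, Ddit4 by 1.22 ± 0.23 and Tsc22d3, which encodes the anti-inflammatory protein GILZ, by 0.93 ± 0.17. Sgk1 had the same difference as Tsc22d3 (0.93) with a larger error and was not called (adjusted p = 0.097). Per1 belongs to this list and to the clock list.

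**Figure D3:**
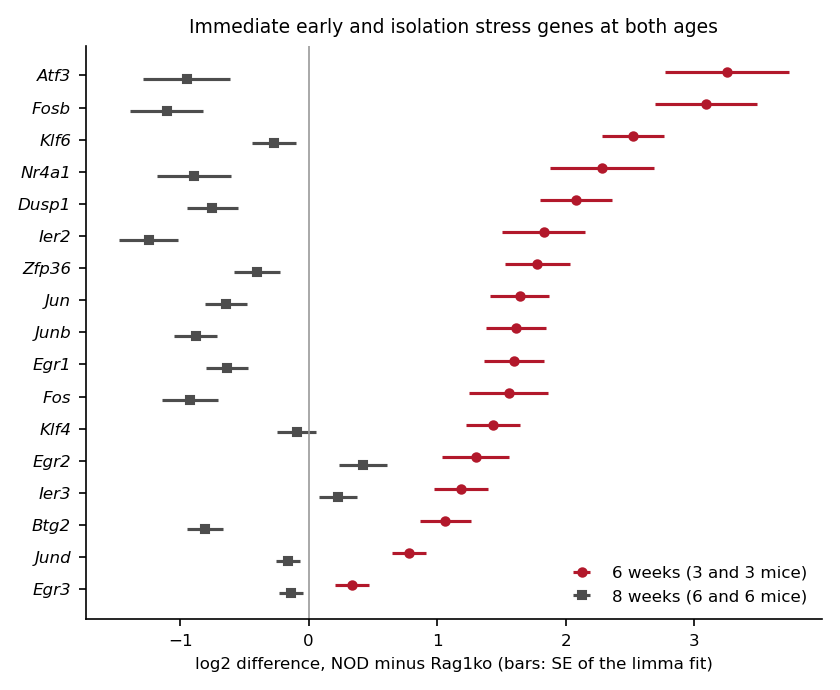
Log2 difference (NOD minus Rag1ko, x axis) of the 17 immediate early genes (rows) at 6 weeks (red circles) and 8 weeks (grey squares), with the standard error of the limma fit as bars. At 6 weeks the differences run from 0.34 to 3.25 and at 8 weeks they lie between -1.25 and 0.42.

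At 8 weeks the immediate early genes differed the other way. None was called higher and 8 of 17 were lower in NOD, against 1.24% of all genes, with a median of -0.64. The change between ages was called in 15 of the 17, against 3.64% of all genes. For Fosb the difference was 3.09 at 6 weeks and -1.11 ± 0.28 at 8 weeks, a change of -4.20 (adjusted p = 7.8e-06). Batf3ko islets at 6 weeks lay nearer to Rag1ko islets. In Batf3ko against NOD 14 of the 17 genes were called lower, where 0.973% of all genes were called. None was called in Batf3ko against Rag1ko, where 0.351% of all genes were. The mean of the list was 9.49 to 9.58 in NOD, 7.61 to 8.48 in Batf3ko and 7.44 to 8.03 in Rag1ko islets at 6 weeks. At 8 weeks it was 7.52 to 8.02 in NOD and 7.74 to 8.70 in Rag1ko islets. The labels do not state the time between death and lysis of the islets.

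Genes of the circadian clock differed in both directions. In the clock, CLOCK and BMAL1 (encoded by Arntl) activate the Per, Cry and Nr1d genes through E-boxes. PER and CRY proteins then repress CLOCK and BMAL1, NR1D proteins repress Arntl through ROR elements, and DBP, TEF and HLF act on D-boxes. Of 14 measured members, 10 were called higher (background 1.44%) and 3 lower (background 2.43%) in NOD. All repressor and output genes that were called, except Cry1, were higher, and both activator genes were lower.

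Among the repressors, Nr1d1 was 10.02, 10.15 and 10.14 in NOD and 7.88, 7.98 and 8.34 in Rag1ko islets (2.04 ± 0.21, adjusted p = 1.0e-06). Nr1d2, its paralog, differed by 1.41 ± 0.17. Per1 was 9.21, 8.84 and 8.97 against 7.05, 7.15 and 7.45 (1.79 ± 0.21, adjusted p = 5.0e-06), Per2 differed by 1.19 ± 0.16 and Per3 by 1.59 ± 0.25. Ciart, a further repressor of the CLOCK and BMAL1 complex, was 6.11, 6.94 and 6.67 against 4.66, 3.96 and 4.94 (2.06 ± 0.43, adjusted p = 0.0045). Cry2 was higher by 1.68 ± 0.21 and Cry1 was lower (-0.72 ± 0.20, adjusted p = 0.037). The Cry1 call was lost in 7 of 16 settings, including each fit that left out 1 of the 6 mice.

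Of the output factors, Dbp was 7.87, 7.83 and 7.90 in NOD and 5.81, 6.26 and 6.44 in Rag1ko islets (1.70 ± 0.21, adjusted p = 7.5e-06). Tef (1.06 ± 0.16) and Hlf (1.03 ± 0.18) were also higher. Arntl was 5.08, 4.65 and 5.03 in NOD and 6.90, 6.78 and 6.76 in Rag1ko islets, a difference of -1.90 ± 0.24 (adjusted p = 1.9e-05). Clock was lower by less (-0.77 ± 0.12, adjusted p = 0.00026), a call lost in the 6-array fit. In none of these 5 genes did the groups overlap.

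**Figure D4:**
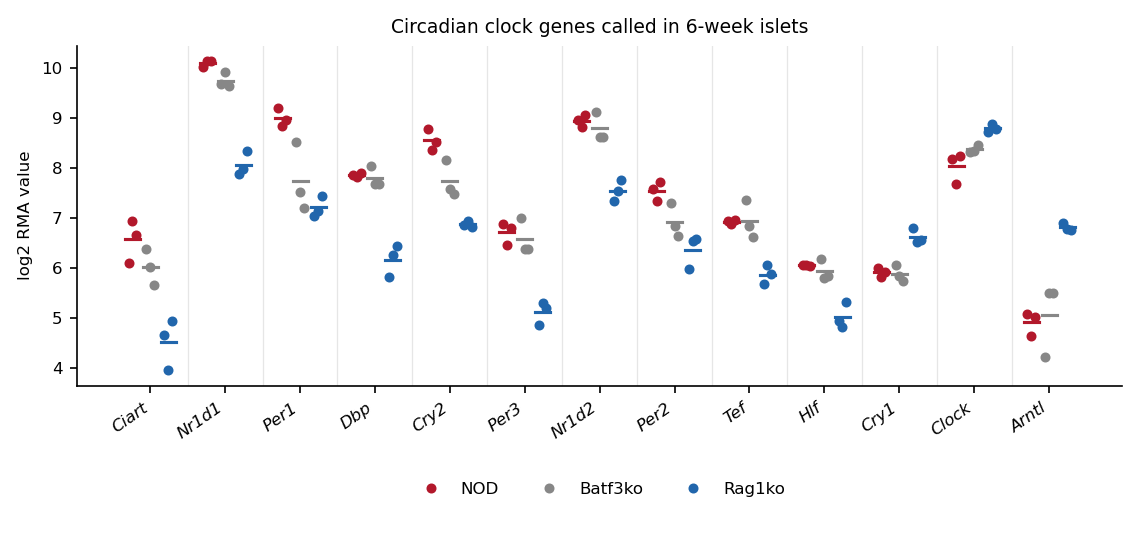
Log2 RMA values (y axis) of the 13 clock genes called at 6 weeks (x axis) in NOD (red), Batf3ko (grey) and Rag1ko (blue) mice; points are mice and bars are group means. For Dbp the Batf3ko mice (7.68 to 8.04) lie with the NOD mice (7.83 to 7.90) and above the Rag1ko mice (5.81 to 6.44), while for Per1 the Batf3ko mice 2 and 3 lie near the Rag1ko mice.

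In this group Batf3ko islets lay near NOD islets in some genes and near Rag1ko islets in others. Dbp was 8.04, 7.68 and 7.68 in Batf3ko islets, 1.63 above Rag1ko (adjusted p = 0.00015) and -0.07 from NOD (adjusted p = 0.96). Nr1d1 (1.68), Nr1d2 (1.25), Per3 (1.46), Tef (1.07), Hlf (0.91) and Arntl (-1.75) were likewise called in Batf3ko against Rag1ko islets. Per1 was not (0.53, adjusted p = 0.52), and it was lower in Batf3ko than in NOD islets (-1.26, adjusted p = 0.0014). In all, 8 of the 14 genes were called in Batf3ko against Rag1ko, where 0.351% of all genes were. In Batf3ko against NOD 2 were called, where 0.973% of all genes were. Both comparisons again share arrays with the main comparison.

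At 8 weeks 2 clock genes were higher in NOD, Dbp (0.62 ± 0.15) and Hlf (0.48 ± 0.13), and none was lower. Over all genes 2.83% were higher and 1.24% lower at that age. The change between ages was called in 10 of the 14, against 3.64% of all genes. Arntl, for example, differed by -1.90 at 6 weeks and -0.34 ± 0.17 at 8 weeks (change 1.56, adjusted p = 0.0027). Transcript levels of these genes cycle over the day, and the labels do not state the hour at which each mouse was killed.

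Clock gene promoters are shown because 3 classes of clock element occur in them. They are RefSeq windows of 300 bases on GRCm38.p6 as above. Capitals mark the E-box CACGTG in Ciart (chr3:95882179-95882478 (minus strand)), the D-box TTATGTAA in Per3 (chr4:151044616-151044915 (minus strand)) and the ROR element core TAGGTCA in Arntl (chr7:113207261-113207560 (plus strand)), each searched on both strands.
Ciart: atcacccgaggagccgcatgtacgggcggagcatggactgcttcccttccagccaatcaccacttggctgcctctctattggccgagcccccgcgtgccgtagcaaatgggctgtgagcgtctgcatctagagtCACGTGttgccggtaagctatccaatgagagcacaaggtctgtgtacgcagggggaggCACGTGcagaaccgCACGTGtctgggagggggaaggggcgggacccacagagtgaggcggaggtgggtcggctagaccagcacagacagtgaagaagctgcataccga
Per3: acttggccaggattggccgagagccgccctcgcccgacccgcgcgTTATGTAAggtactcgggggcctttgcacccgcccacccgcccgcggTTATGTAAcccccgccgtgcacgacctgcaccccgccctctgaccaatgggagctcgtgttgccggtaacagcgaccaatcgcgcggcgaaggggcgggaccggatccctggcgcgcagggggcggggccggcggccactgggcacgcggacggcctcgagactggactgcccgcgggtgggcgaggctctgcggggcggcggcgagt
Arntl: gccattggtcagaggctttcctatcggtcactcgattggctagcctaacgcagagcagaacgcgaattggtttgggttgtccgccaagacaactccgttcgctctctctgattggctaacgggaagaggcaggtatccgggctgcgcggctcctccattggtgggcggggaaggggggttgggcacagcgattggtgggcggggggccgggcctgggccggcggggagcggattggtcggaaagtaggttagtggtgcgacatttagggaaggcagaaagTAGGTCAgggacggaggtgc
The E-box occurred in 3 of the 9 higher genes with a promoter in the table (Per1, Tef and Ciart), in 1 of the 3 lower genes (Cry1) and in 8.09% of all genes. Ciart held 3 copies. The D-box occurred in Per3 alone among the 9, in 2 copies, and in 1.11% of all genes. The ROR core occurred in Arntl alone among the 3 lower genes, 30 bases after the transcript start, and in 2.97% of all genes.

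Genes lower in NOD than in Rag1ko islets were led by Reg3g. The Reg genes encode small secreted lectins, and those of the Reg3 group are antimicrobial and acute-phase products of gut and pancreas. Reg3g was 5.26, 6.03 and 5.55 in NOD and 11.05, 9.72 and 9.89 in Rag1ko islets, a difference of -4.61 ± 0.45 (adjusted p = 4.2e-07). The Batf3ko mice, at 4.92, 6.52 and 4.66, were as low as the NOD mice, and the Batf3ko minus Rag1ko difference was -4.86 (adjusted p = 8.1e-07). Reg3g was thus high in the 3 Rag1ko mice alone among the 9 arrays at 6 weeks. At 8 weeks NOD and Rag1ko islets differed by -0.12 ± 0.32, a change of 4.49 (adjusted p = 1.7e-05).

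Of the 7 Reg genes Reg3g was the only call. Reg3a was 9.91, 9.87 and 9.84 in NOD and 12.43, 12.24 and 11.94 in Rag1ko islets, and Reg3b was 11.58, 11.13 and 11.37 against 13.06, 12.94 and 12.91. The groups did not overlap in either gene, but the differences of -2.33 ± 0.90 (adjusted p = 0.18) and -1.61 ± 0.88 (adjusted p = 0.41) were not called. The fit's error takes in the other groups, and the Batf3ko mice spread from 5.47 to 9.73 in Reg3a. With only the 6 NOD and Rag1ko arrays in the fit, the adjusted p-values were 0.0022 and 0.0063. Reg1 (0.11), Reg2 (-0.19) and Reg4 (0.22) differed little. The Reg genes are related in sequence, and whether their probe sets cross-hybridise was not tested. Acinar markers differed by a median of 0.15 in the other direction.

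Lgals9, which encodes galectin-9, a lectin that binds the T cell receptor TIM-3, was 7.24, 7.51 and 7.08 in NOD and 10.05, 8.49 and 8.36 in Rag1ko islets (-1.69 ± 0.31, adjusted p = 0.0015). C4b, a complement component, was 5.90, 5.90 and 5.28 against 8.50, 6.84 and 6.89 (-1.71 ± 0.48, adjusted p = 0.041). F2, which encodes prothrombin (-1.46 ± 0.30), the channel-like gene Tmc5 (-1.50 ± 0.26), the NADPH oxidase activator Noxa1 (-1.29 ± 0.25) and the heparan sulfatase gene Sulf2 (-1.27 ± 0.26) were lower too. In each of these 6 genes Rag1ko mouse 1, the array that stood apart on the second component, was the highest of the 9 arrays. Without it the C4b difference was -1.17 and was no longer called (adjusted p = 0.24), and the C4b call was also lost without any of the 3 NOD mice. The other 5 stayed called, with differences of -1.15 for Lgals9, -1.02 for F2, -0.95 for Tmc5, -0.76 for Noxa1 and -0.75 for Sulf2. With only the 9 arrays at 6 weeks none of the 6 was called, at adjusted p-values from 0.063 (Lgals9) to 0.10 (Noxa1). That mouse also read higher in the fibroblast markers Dpt (7.14 against 5.79 and 4.38 in the other Rag1ko mice) and Lum (5.61 against 3.73 and 2.94), whose part in these results was not tested.

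A smaller set was lower in NOD at both ages. Sdc2, a heparan sulfate proteoglycan of the cell surface, was 5.65, 5.43 and 5.40 in NOD and 6.70, 7.07 and 7.02 in Rag1ko islets (-1.44 ± 0.15, adjusted p = 1.1e-06), and differed by -1.30 ± 0.11 at 8 weeks. Rsph1, a component of the ciliary radial spoke, was 6.13, 6.51 and 6.22 against 7.41, 7.93 and 7.76 (-1.41 ± 0.16), and differed by -1.66 ± 0.11 at 8 weeks. Slc37a1, a sugar-phosphate transporter gene, was 8.94, 8.49 and 8.89 against 9.61, 10.03 and 9.96 (-1.10 ± 0.16), and differed by -1.08 ± 0.11 at 8 weeks. Dennd4a, a regulator of Rab GTPases, was 6.14, 4.74 and 5.67 against 7.55, 7.67 and 7.63 (-2.10 ± 0.35), and differed by -1.37 ± 0.25 at 8 weeks. Rhobtb1 (-1.07 and -0.68) and Anks4b (-0.61 and -0.73) completed the named genes of this kind. The Anks4b call was lost in 4 of 16 settings, including without NOD mouse 1 or Rag1ko mouse 3, and the Rhobtb1 call in the 6-array fit. In Sdc2, Rsph1, Slc37a1, Dennd4a and Rhobtb1 Batf3ko islets were also below Rag1ko islets (-0.87 to -1.53, all called). The change between ages was not called for any of these 6 genes.

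**Figure D5:**
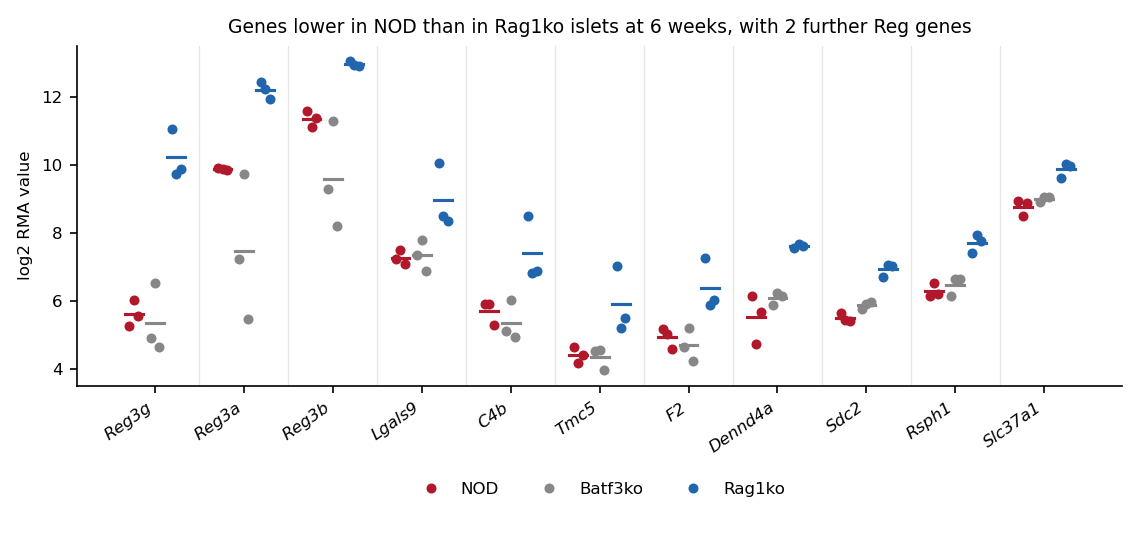
Log2 RMA values (y axis) of 9 genes called lower in NOD against Rag1ko at 6 weeks, and of Reg3a and Reg3b, which were not called (x axis), in NOD (red), Batf3ko (grey) and Rag1ko (blue) mice; points are mice and bars are group means. Reg3g is at 9.72 to 11.05 in the Rag1ko mice and at 4.66 to 6.52 in the other 6 mice.

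Over all genes, 30 were called higher at both ages (10.5% of the higher calls at 6 weeks and 5.31% of those at 8 weeks), and 11 were called lower at both (2.27% and 4.45%). A further 20 were higher at 6 and lower at 8 weeks, and 10 the reverse.

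Most of the 485 lower calls were small, and gene classes examined after the values were seen described part of them. Of 77 mitochondrial ribosomal protein genes 11 were lower and 1 higher (median -0.28), where 2.43% of all genes were lower. Of 82 respiratory chain subunit genes 13 were lower and none higher (median -0.22). At 8 weeks the medians of these classes were 0.08 and 0.07. Small nucleolar RNAs went the other way, with 7 of 52 (13.5%) higher, against 1.44% of all genes, and none lower (median 0.20). Olfactory and vomeronasal receptor genes, 1194 in number, had 16 higher (1.34%, near the share of all genes), none lower and a median of 0.13.

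Genes of the islet itself differed little in the fit to all 27 arrays. None of 22 beta cell genes was called, and the median difference was -0.11. The largest were Slc2a2, which encodes the glucose transporter GLUT2 (-0.35 ± 0.14, adjusted p = 0.19), Nkx6-1 (-0.30, adjusted p = 0.22) and Mafa (-0.29, adjusted p = 0.51), all transcription factors or transporters of the mature beta cell. This result depended on Rag1ko mouse 1, whose beta cell list mean was 9.67, against 10.11 and 10.09 in Rag1ko mice 2 and 3. Without that mouse 2 of the 22 genes were called lower, with a list median of -0.28. With array weights 3 were called lower. Slc2a2 was called in both of these fits. Of 10 autoantigen genes, Gad1, which encodes a form of glutamate decarboxylase, was higher (0.55 ± 0.14, adjusted p = 0.023), a call lost in 6 of 16 settings, including without NOD mouse 1 or 3 or Rag1ko mouse 1. No gene of 10 for other endocrine cells and none of 27 acinar genes was called. In 11 of the 27 acinar genes all NOD mice were above all Rag1ko mice, but by little (list median 0.15). The same held for 1899 of all 19938 genes. In the endothelial list Emcn, a sialomucin of capillaries and veins, was lower (-0.84 ± 0.17, adjusted p = 0.0042), and 12 of 14 members lay at or below 0. That call was lost without NOD mouse 2 and in the 9-array and 6-array fits. Other settings called more of the 14 lower, such as 6 with array weights and 3 without NOD mouse 1. In the 9-array fit Eng was called lower (adjusted p = 0.039), and in the 6-array fit no member was called. Of the sterol synthesis list, Sqle (-0.60, adjusted p = 0.016) and Fdps (-0.58, adjusted p = 0.037) were lower of 10. These calls were lost in 7 and 9 of 16 settings, including without NOD mouse 2 or 3 or Rag1ko mouse 2 or 3, and the list had 0 calls with only the 9 or only the 6 arrays. The cell cycle list (0 of 18) had a median of 0.00.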

How the data were processed

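The authors hybridised total RNA of islets to Affymetrix Mouse Gene 1.0 ST arrays and deposited log2 values that, per the labels and design text, were normalized by RMA in Arraystar. The submitters' processing notes name Affymetrix Expression Console and mm9, with no version or role. The table holds 30177 probe sets for 27 arrays: 21789 have 1 gene symbol, 1621 several and 6767 none. The number of arrays limits the precision. limma 3.58.1 (R 4.3.3) was fitted to 6 groups, with Benjamini-Hochberg adjustment, 21 residual degrees of freedom and 5.524 from the prior, and was tested on simulated data. The differences between ages are an interaction term. Samples were grouped by their titles, and p-values measure the spread between mice. Same-numbered mice did not deviate together (correlations -0.21, -0.14 and 0.02), so numbers were not used as pairs.

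Genes are named by rule: Rag1 and Rag2, the 12 greatest differences each way at 6 and at 8 weeks, 6 each way between ages, and up to 4 per list plus any call. The Rag1 neighbours are the nearest 10 on each side. Genes outside the rule, such as the heat shock genes, were chosen after their values were seen. The members and lists were chosen with earlier results of these data known. Alternatives changed the samples fitted, the filter, probe set rule, normalization, variance model, weights, block and each mouse. Promoters came from RefSeq on GRCm38.p6.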

Additional observations from a re-analysis of the deposited data

Results flagged for a closer look

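For 63 of the 220 named genes the NOD minus Rag1ko difference at 8 weeks departed from that at 6 weeks. The test was of the change itself (limma interaction, adjusted p from 9.8e-08 to 0.043), and over all genes 3.64% were called in it. Named genes were chosen in part by their differences at 6 or 8 weeks and by this same test. The count of 63 is therefore not independent of that choice. Each value below is the 8-week difference minus the 6-week difference in log2 units, so a negative value is a gene that stood higher in NOD, relative to Rag1ko, at 6 weeks than at 8 weeks. The tissue carried along also changed with age, since the mean of the acinar markers went from 11.99 to 8.48 in NOD and from 11.89 to 7.36 in Rag1ko islets; its part in these changes was not tested.

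Immediate early genes gave 15 of the negative changes. The greatest were -4.20 for Atf3, -4.20 for Fosb, -3.18 for Nr4a1, -3.08 for Ier2, -2.83 for Dusp1, -2.80 for Klf6, -2.49 for Junb and -2.48 for Fos. Smaller changes in the same list were -2.29 for Jun, -2.24 for Egr1, -2.18 for Zfp36, -1.87 for Btg2, -1.53 for Klf4, -0.96 for Ier3 and -0.94 for Jund. Genes named beside them changed by -3.91 for Fam71a, -3.83 for Polg2, -3.12 for Npas4, -3.05 for Gem and -2.44 for Rgs2. The chemokine gene Cxcl2 changed by -1.70.

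Clock genes changed by -2.05 for Cry2, -2.03 for Per1, -1.75 for Nr1d1, -1.24 for Nr1d2, -1.20 for Per3, -1.10 for Per2, -1.08 for Dbp and -0.75 for Tef, and the activators moved the other way, by 0.61 for Clock and 1.56 for Arntl. Glucocorticoid targets changed by -2.14 for Zbtb16, -1.78 for Fkbp5, -1.73 for Errfi1, -1.49 for Ddit4, -0.82 for Tsc22d3 and -0.65 for Klf9. Rasd1, a small GTPase induced by dexamethasone, changed by -2.04. Genes of endoplasmic reticulum and oxidative stress changed by -1.73 for Chac1, -1.73 for Ddit3, -1.24 for Herpud1, -1.30 for Txnip, 0.50 for Gclm and 0.91 for Prdx1. The autoantigen gene Gad1 changed by -0.79.

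Among genes high in Rag1ko islets at 6 weeks, the changes were 4.49 for Reg3g, 2.91 for C4b, 2.22 for Lgals9, 1.92 for Sulf2, 1.40 for Tmc5, 1.34 for F2 and 1.14 for Noxa1. Leukocyte and interferon genes changed by 2.96 for Plac8, 2.63 for Ccl19, 2.57 for Lyz2, 2.29 for Cd52 and 1.54 for Oas2. Genes of stroma, vessels and fat changed by 2.86 for Dpt, 2.73 for Lum, 1.16 for Acta2, 1.06 for Eng, 1.02 for Pecam1 and 1.41 for Fabp4; Dpt and Lum were high in Rag1ko mouse 1 at 6 weeks.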

How the results depend on the processing

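The fit to all 27 arrays called 772 genes. The fit to the 9 arrays at 6 weeks called 476 (233 lower), of which 185 higher and 196 lower calls were among the 772. The fit to the 6 arrays called 197 (124 higher, 73 lower), of which 108 and 65 were. Array weights gave 1965 calls (757 higher, 1208 lower, and 1318 genes changed between ages). Averaging Rag1ko mice 2 and 3, an alternative chosen after seeing the data, gave 449 (253 lower). In that fit the interferon-gamma list held 4 calls, against 7 in the main fit. The class II and class I lists held 1 each, against 2 each. The cytokine list held 0, against 1, and the sterol synthesis list 0, against 2. Named genes that lost their call there were Gbp4, Gbp5, Gbp7, H2-Ab1, B2m, Tnf, Cry1, Klf9, Sqle, Fdps, Anks4b and Dapl1. Leaving out 1 mouse at a time gave 377 to 761 calls, 187 to 279 higher, 190 to 482 lower, 5260 to 6843 genes without overlap (fewer arrays overlap less) and 393 to 662 genes changed between ages; the lowest call counts came without NOD mouse 2. The cause was not tested. The dim-gene filter, the probe set rules, both normalizations, and the trended variance model stayed within 1.5 times of the main counts, although joint quantile normalization moved the share of higher calls from 37.2% to 47.9%. With the replicate block 634 genes were called (251 higher, 383 lower) and 562 changed between ages. Samples share only a number, and same-numbered samples did not deviate together. Of 3476 comparisons over 220 named genes, 3266 kept their side of the threshold, 118 in 31 genes lost it, 92 in 44 genes gained it and 0 reversed.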
